A study of Rattus norvegicus with 8 samples.

Results

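The 7 genes described here are Upk1b, Sgk1, Meox1, Tcl1a, Igsf21, Cryga and Rgs5, out of 16764 gene symbols in a table of read counts from rat male germ cells. They were picked by symbol because earlier results of the same counts had shown them high in stem spermatogonia and low elsewhere, and none is in the marker lists for these cells used here. Their differences between groups are therefore descriptions, given without a test. RNA was sequenced from 3 groups of Brown Norway rat cells with 2 libraries each. Undifferentiated spermatogonia (USg) were a spermatogonial stem cell line expanded in SG medium, with RNA taken at day 0, before plating on laminin. Differentiating spermatogonia (DSg) were the same line after 7 days on laminin, of which 120 h were in SD medium, which holds all-trans-retinoic acid and neuregulin-1. The spermatocyte-enriched cells (Spc) came not from the line but from primary testis culture: cells that stick to plastic, collagen-I or laminin were removed, and the germ cells that stayed unbound spent 2.5 days in medium with 10% serum. USg and DSg thus differ in medium, matrix and days at once, and Spc differs from both in source, selection and serum. The titles of USg carry the same 120 h tag as those of DSg, so whether these groups were matched for time cannot be told from the labels.

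Stem spermatogonia renew themselves under glial cell line-derived neurotrophic factor (GDNF) and fibroblast growth factors, which act through receptor kinases, the phosphoinositide 3-kinase and Akt pathway and transcription factors such as Etv5. Retinoic acid drives them into differentiation, during which they divide in connected chains and, after further divisions, enter meiosis as spermatocytes. The 7 genes are best known from other tissues. Tcl1a encodes a coactivator of Akt kinases known from lymphocytes and pluripotent cells, and Sgk1 a kinase related to Akt that serum, glucocorticoids and mineralocorticoids induce. Meox1 encodes a homeobox factor of the somites. Rgs5 encodes a regulator that speeds the switching off of G proteins and is known from pericytes. Upk1b encodes a tetraspanin of the urothelial plaque, Igsf21 an immunoglobulin-superfamily protein known from synapses in mice, and Cryga a gamma crystallin of the eye lens.

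The promoters of the members show what sequence lies next to their start sites. RefSeq promoters of the rat assembly GRCr8, running from 250 bases before to 50 bases after the start, matched 6 of the 7 genes with 8 starts, and none was held for Meox1. The 3 printed here belong to the gene with the lowest level left in DSg (Upk1b), the one that differs most from the rest in Spc (Sgk1, the first of its 3 starts) and the one with the lowest level left in Spc (Tcl1a). Capitals mark the Ets core GGAAG, read on the other strand as CTTCC, and the TATA box TATAAA.
Upk1b, chr11:75459131-75459430, plus strand: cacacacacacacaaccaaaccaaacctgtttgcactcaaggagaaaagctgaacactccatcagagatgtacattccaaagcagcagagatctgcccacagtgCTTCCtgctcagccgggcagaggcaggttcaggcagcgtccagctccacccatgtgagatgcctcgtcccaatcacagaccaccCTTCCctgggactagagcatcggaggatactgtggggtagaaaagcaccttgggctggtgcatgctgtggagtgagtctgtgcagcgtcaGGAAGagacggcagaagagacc
Sgk1, chr1:24804782-24805081, minus strand: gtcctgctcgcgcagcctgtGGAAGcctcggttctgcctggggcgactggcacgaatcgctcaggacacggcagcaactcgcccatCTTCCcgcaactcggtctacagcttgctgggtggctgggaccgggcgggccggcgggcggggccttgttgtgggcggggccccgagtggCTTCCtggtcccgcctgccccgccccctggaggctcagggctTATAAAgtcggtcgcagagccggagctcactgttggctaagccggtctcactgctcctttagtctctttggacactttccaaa
Tcl1a, chr6:129895707-129896006, minus strand: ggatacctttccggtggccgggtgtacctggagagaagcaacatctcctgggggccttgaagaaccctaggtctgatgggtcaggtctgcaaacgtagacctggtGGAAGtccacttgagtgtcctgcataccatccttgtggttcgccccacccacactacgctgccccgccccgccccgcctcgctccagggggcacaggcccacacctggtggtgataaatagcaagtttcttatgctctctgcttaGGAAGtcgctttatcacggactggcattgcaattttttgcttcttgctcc
The GC content was 55.3% for Upk1b, 66.0% for Sgk1 and 56.7% for Tcl1a, against a median of 51.7% over 33469 promoters. The Ets core occurred on either strand in 5 of the 6 genes, all but Cryga, and in 70.1% of all promoters. The TATA box letters occurred in Sgk1 alone of the 6, 33 bases before the start printed here, and in 14.2% of all promoters. The nuclear receptor core AGGTCA was found in Cryga alone, against 16.2% of all promoters, and the E-box CANNTG in 5 of the 6, against 72.1%. The forkhead core TGTTTAC was in 0 of the 6 and in 3.78% of all promoters. No pair of these motifs was counted at overlapping letters in the promoters printed. A match or its lack says only which letters stand in these 300 bases.

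Levels are given as CPM, each gene's counts as a share of the library, scaled with the TMM factors of edgeR, which equalise libraries by the bulk of their genes. They are not divided by gene length, so they compare a gene between libraries and not one gene with another. Totals ran from 2657291 to 5697165 counts per library, so that 1 count stood for 0.178 to 0.404 CPM. The replicates were uneven: the 2 ribosomal RNA genes took 7.80% of the counts in USg 1 and 12.4% in DSg 1, against at most 0.733% in the others, and 96.75% of 1045 olfactory receptor genes had a count in DSg 2, against 23.35 to 64.11% in the others. The mean olfactory receptor gene stood at 1.31 CPM in DSg 2 and at 0.128 to 0.293 CPM elsewhere, and levels of about that size in DSg 2 are read here as no more than listed. The labels do not say whether the 2 libraries of a group came from separate cultures or animals. In bulk RNA, fewer cells of a type and less RNA per cell cannot be told apart.

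The level of all 7 genes was higher in both USg libraries than in any DSg or Spc library. They were picked for being high in USg, and the share of all genes that separate in this way is not given here. Ordered by what was left in DSg as a share of the USg mean, the genes ran Upk1b (1.88%), Sgk1 (3.94%), Meox1 (4.51%), Tcl1a (6.82%), Igsf21 (7.51%), Cryga (12.4%) and Rgs5 (15.7%). The share left in Spc was lowest for Tcl1a (0.256%), then Rgs5 (0.518%), Cryga (0.795%), Igsf21 (0.962%), Meox1 (1.02%) and Upk1b (1.57%), and stood far higher for Sgk1 (38.2%). Sgk1 is therefore not high in USg alone among the 3 groups. The description "high only in stem spermatogonia" matches the other 6 within these groups, which restates how they were picked. Over all 12210 genes tested, 1.92% were called lower in DSg than in USg at an adjusted p under 0.05 and 16.6% lower in Spc than in USg, while 11.7% were called lower and 14.8% higher in Spc than in DSg. The members were chosen on these contrasts, so their own standing in them is given for orientation only.

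**Figure D1:**
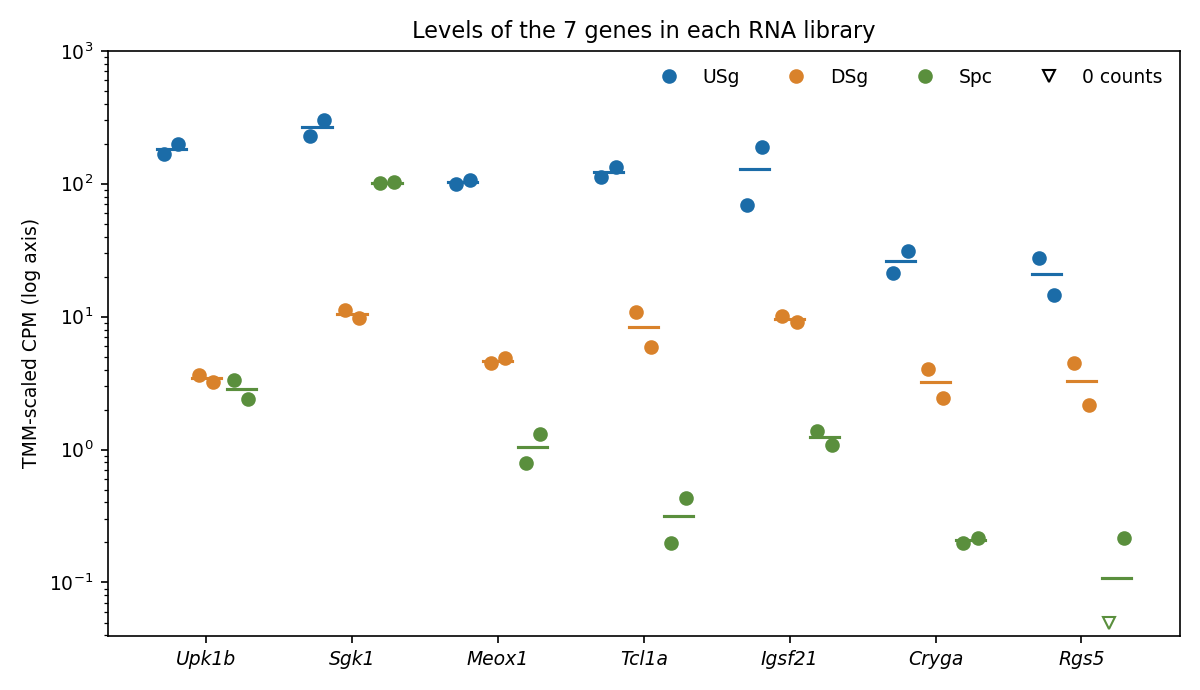
Level of each of the 7 genes in the 6 libraries, in TMM-scaled CPM on a log axis; circles are libraries, short lines are group means and the open triangle marks a library with 0 counts. USg lies above DSg and Spc for each gene, DSg and Spc overlap for Upk1b alone, and for Sgk1 the Spc libraries (101 and 102 CPM) lie between USg and DSg.

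Upk1b encodes uroplakin 1b, a tetraspanin that pairs with uroplakin 3 in the plaques that seal the bladder surface. It stood at 167 and 199 CPM in the USg libraries (432 and 1118 counts), at 3.64 and 3.23 CPM in DSg (9 and 12 counts) and at 3.35 and 2.40 CPM in Spc (17 and 11 counts). Both USg libraries were high, while DSg and Spc were low and overlapped, the only overlap between groups among the 7 genes. The group means were 183 ± 22.9 CPM in USg, 3.43 ± 0.286 CPM in DSg and 2.87 ± 0.676 CPM in Spc (SD, n = 2 libraries each). The fitted log2 fold change was -5.73 ± 0.41 (SE) for DSg over USg, the lowest of all 12210 genes, and -5.97 ± 0.40 for Spc over USg, the 18th lowest. For Spc over DSg it was -0.24 ± 0.43. On the log2 scale, 95.9% of the distance from USg to Spc was thus already reached in DSg. Summed counts gave a share of 1.80% of USg in DSg (95% exact interval 1.11 to 2.76%) and of 1.53% in Spc (1.02 to 2.23%), where these and the later intervals cover counting error only.

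Sgk1 encodes the serum- and glucocorticoid-regulated kinase 1, which is switched on by the same upstream kinases as Akt. It stood at 230.0 and 303 CPM in USg (596 and 1701 counts), at 11.3 and 9.69 CPM in DSg (28 and 36 counts) and at 101 and 102 CPM in Spc (513 and 470 counts). The 3 groups did not overlap, and their order was USg, Spc, DSg. The means were 266 ± 51.6 CPM in USg, 10.5 ± 1.15 CPM in DSg and 102 ± 0.866 CPM in Spc (SD, n = 2 each). Its fitted log2 fold change was -4.67 ± 0.36 for DSg over USg, the 6th lowest of all genes, but -1.39 ± 0.30 for Spc over USg, the 2106th lowest. For Spc over DSg it was 3.28 ± 0.34, and the mean in Spc was 9.68 times that in DSg. Serum is a known inducer of this gene, and Spc had been held in serum medium, but source, selection and medium cannot be told apart between these groups. Summed markers of Sertoli cells, fibroblasts and peritubular myoid and smooth muscle cells were also higher in Spc. Of 10 Sertoli cell markers 8 reached 5 CPM in Spc, 6 in USg and 4 in DSg. The list summed to 417 and 481 CPM in USg, 260.2 and 219.7 CPM in DSg and 1959.8 and 1692 CPM in Spc. Of 6 fibroblast markers 4 reached 5 CPM in Spc, 4 in USg and 3 in DSg. Their sums were 493 and 223 CPM in USg, 273 and 199.8 CPM in DSg and 2423 and 2268 CPM in Spc. Of 7 markers of peritubular myoid and smooth muscle cells 6 reached 5 CPM in Spc, 5 in USg and 3 in DSg. The list summed to 597 and 654 CPM in Spc, against at most 87.6 CPM in any other library. Single genes went the other way, with a higher mean in USg than in Spc. These were Thy1 (10.95 and 1.07 CPM), Col1a1 (214 and 157 CPM), Sox9 (56.4 and 47.7 CPM) and Dhh (8.31 and 7.72 CPM). Whole lists of other somatic cells were also higher in USg. Pericyte markers summed to 712 and 944 CPM in USg and 239 and 217 CPM in Spc. Endothelium markers summed to 221 and 169 CPM in USg and 44.3 and 54.4 CPM in Spc. The part of any of these cells in the Sgk1 level was not tested.

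Meox1 encodes a homeobox factor that patterns the somites. It stood at 98.8 and 107 CPM in USg (256 and 603 counts), at 4.44 and 4.85 CPM in DSg (11 and 18 counts) and at 0.788 and 1.31 CPM in Spc (4 and 6 counts). Libraries of a group lay close together and the groups did not overlap. The means were 103 ± 6.07 CPM in USg, 4.65 ± 0.285 CPM in DSg and 1.05 ± 0.366 CPM in Spc (SD, n = 2 each), with the USg pair closer together than for the other 6 genes. Its fitted log2 fold change was -4.46 ± 0.40 for DSg over USg, the 11th lowest, and -6.59 ± 0.45 for Spc over USg, the 7th lowest. A further -2.13 ± 0.48 separated Spc from DSg, so that 71.2% of the log2 distance to Spc was reached in DSg. From summed counts, 4.48% of the USg level was left in DSg (95% interval 2.98 to 6.48%) and 0.988% in Spc (0.472 to 1.83%).

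Tcl1a encodes the T-cell leukemia protein 1a, which binds Akt and promotes its activation. It stood at 112 and 135 CPM in USg (291 and 756 counts), at 10.9 and 5.92 CPM in DSg (27 and 22 counts) and at 0.197 and 0.435 CPM in Spc (1 and 2 counts). The drop was thus in stages, with DSg low and Spc near no counts at all. The means were 123 ± 15.8 CPM in USg, 8.42 ± 3.52 CPM in DSg and 0.316 ± 0.169 CPM in Spc (SD, n = 2 each). For DSg over USg the fitted log2 fold change was -3.90 ± 0.43, the 23rd lowest. With 3 counts in Spc, the share left there was 0.243% of USg (95% interval 0.0501 to 0.713%), the lowest of all 7177 genes with at least 20 CPM in USg when taken from mean levels. DSg reached 53.0% of the log2 distance to Spc.

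Igsf21 encodes a cell-surface protein that binds neurexin in mice and shapes inhibitory synapses. It stood at 69.1 and 187 CPM in USg (179 and 1053 counts), at 10.1 and 9.16 CPM in DSg (25 and 34 counts) and at 1.38 and 1.09 CPM in Spc (7 and 5 counts). The USg libraries differed by 2.71 times, the widest gap between USg libraries among the 7 genes, yet both lay above every DSg and Spc library. The means were 128 ± 83.7 CPM in USg, 9.63 ± 0.669 CPM in DSg and 1.23 ± 0.206 CPM in Spc (SD, n = 2 each). The fitted log2 fold change was -3.74 ± 0.52 for DSg over USg and -6.67 ± 0.63 for Spc over USg, the 28th and the 6th lowest. DSg held 6.35% of the summed USg level (95% interval 4.81 to 8.25%) and Spc 0.827% (0.426 to 1.45%). The share in DSg was 4.71% without USg 1 and 13.5% without USg 2.

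Cryga encodes gamma-A crystallin, a structural protein of lens fibre cells. It stood at 21.2 and 31.0 CPM in USg (55 and 174 counts), at 4.04 and 2.42 CPM in DSg (10 and 9 counts) and at 0.197 and 0.218 CPM in Spc (1 count in each). The means were 26.1 ± 6.90 CPM in USg, 3.23 ± 1.14 CPM in DSg and 0.207 ± 0.0146 CPM in Spc (SD, n = 2 each). For DSg over USg the fitted log2 fold change was -3.04 ± 0.53, the 75th lowest. DSg held 11.0% of the summed USg level (95% interval 6.51 to 17.6%), and Spc, with 2 counts, 0.742% (0.0893 to 2.71%). The DSg 2 level of 2.42 CPM is near the 1.31 CPM of the mean olfactory receptor gene in that library. Gamma crystallin genes are close copies of one another and reads can be shared between them, so the count of Cryga is uncertain. The other 7 gamma crystallin genes of the table summed to 21 counts in USg, 27 in DSg and 11 in Spc, against 229, 19 and 2 for Cryga itself. USg counts of Cryga were thus not matched by counts in its relatives. How reads shared between copies were counted is not given, so these counts cannot tell whether the reads of Cryga are its own.

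Rgs5 encodes a GTPase-activating protein for G alpha subunits. It stood at 27.4 and 14.6 CPM in USg (71 and 82 counts), at 4.44 and 2.15 CPM in DSg (11 and 8 counts) and at 0 and 0.218 CPM in Spc (0 and 1 count). It was the least abundant of the 7 in reads, and the only one with a library at 0. Its 2.15 CPM in DSg 2 is again near the 1.31 CPM of the mean olfactory receptor gene there. The means were 21.0 ± 9.05 CPM in USg, 3.30 ± 1.62 CPM in DSg and 0.109 ± 0.154 CPM in Spc (SD, n = 2 each). The fitted log2 fold change for DSg over USg was -2.69 ± 0.67, the 115th lowest. DSg held 16.5% of the summed USg level (95% interval 9.65 to 26.6%), and Spc, with 1 count, 0.555% (0.0140 to 3.14%). DSg reached 49.1% of the log2 distance to Spc for Rgs5, 54.6% for Cryga and 57.8% for Igsf21.

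**Figure D2:**
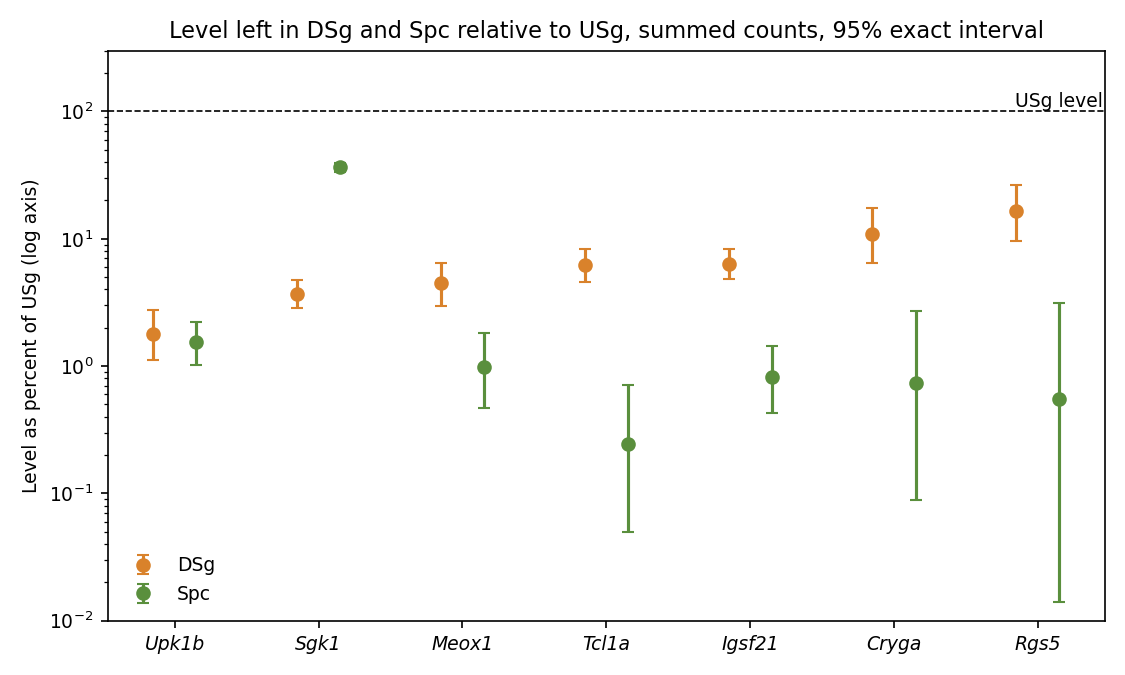
Level left in DSg and in Spc as a percentage of USg, from summed counts scaled by library size, on a log axis; bars are 95% exact intervals, which cover counting error only, and the dashed line marks the USg level. Genes run left to right by the share left in DSg, from 1.80% for Upk1b to 16.5% for Rgs5, while the share in Spc ranges from 0.243% for Tcl1a to 36.3% for Sgk1.

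The order of the 7 genes depended in part on single libraries. Upk1b and Sgk1 kept the lowest shares in DSg under every scaling and with each library left out, as well as without USg 1 and DSg 1 together. Meox1 came next under these settings except the last, where Tcl1a took its place. Tcl1a and Igsf21 changed places without USg 1 or without DSg 2. Without USg 2, Igsf21 and Cryga came after Rgs5. By the 95% intervals on the share left in DSg, Upk1b (1.11 to 2.76%) lay apart from Sgk1 (2.84 to 4.74%). Each later gene overlapped with the next one in the order, through Meox1 (2.98 to 6.48%), Tcl1a (4.56 to 8.27%), Igsf21 (4.81 to 8.25%), Cryga (6.51 to 17.6%) and Rgs5 (9.65 to 26.6%), so these single steps are not resolved by the counts. Without DSg 1 and without DSg 2, the shares left in DSg were 4.20% and 8.86% for Tcl1a, 8.11% and 15.5% for Cryga and 9.06% and 21.2% for Rgs5, with the lower share in each gene coming from DSg 2 alone.

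Among all 7177 genes with at least 20 CPM in USg, the median gene kept 88.7% of its USg level in DSg and 84.4% in Spc. Only 5 genes kept at most 5% in both, and Upk1b and Meox1 were among them. At most 10% in both was kept by 23 genes, 4 of them members, and at most 20% by 94 genes, 6 of them members. Sgk1 ranked 6th lowest by its share in DSg and 1255th by its share in Spc, whereas Rgs5 ranked 98th in DSg and the 2nd lowest in Spc. These ranks restate how the members were found.

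**Figure D3:**
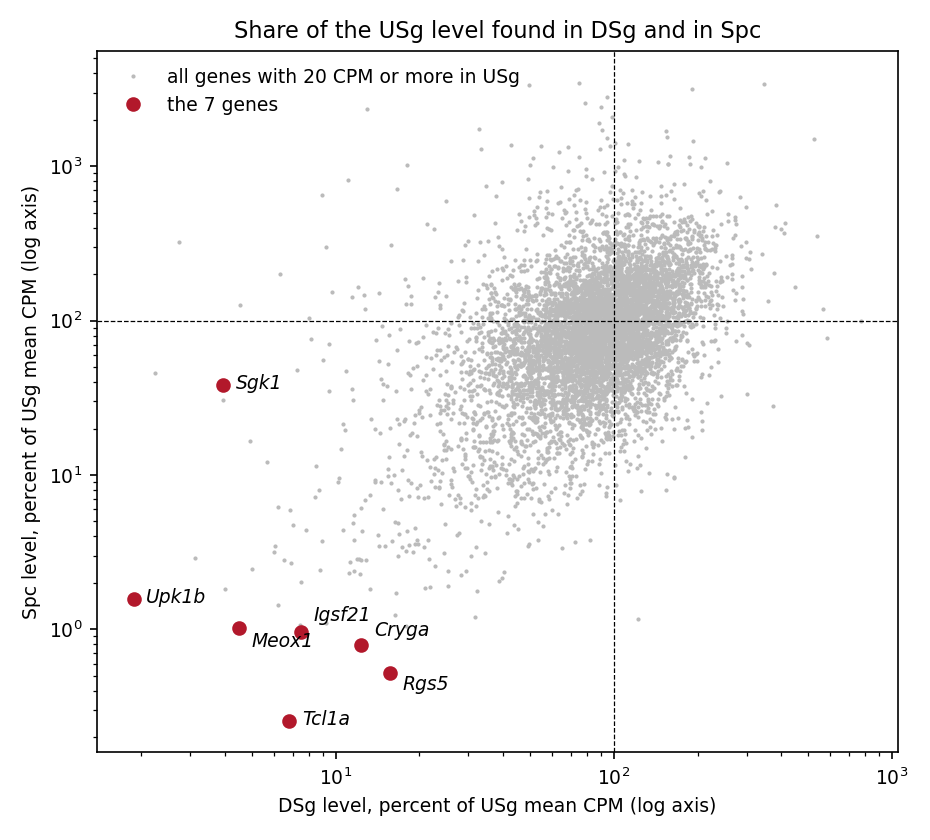
Level in Spc against level in DSg, each as a percentage of the USg mean CPM, on log axes; grey points are the genes with 20 CPM or more in USg, red points the 7 genes, and dashed lines mark 100% of USg. The medians of all genes were 88.7% in DSg and 84.4% in Spc, and of the 7 genes Sgk1 lies apart at 38.2% in Spc.

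Each member was set beside the genes whose profile over the 6 libraries was most like its own, among 8644 genes with at least 20 CPM in some group. Likeness was the Euclidean distance between log2 CPM profiles centred on their means, and Pearson's r over the same 6 libraries is a description, since the libraries share groups, depth and scaling. Upk1b was nearest to Foxa2, a forkhead transcription factor of endoderm (distance 1.09, r = 0.994), which averaged 123 ± 46.5 CPM in USg, 3.84 ± 0.285 CPM in DSg and 3.55 ± 1.94 CPM in Spc (SD, n = 2 each). The notochord homeobox gene Noto and the homeobox gene Hoxc4 followed, at distances of 1.58 and 1.72. Meox1 was nearest to Gfra2, a co-receptor of the GDNF family ligand neurturin (1.06), ahead of the lipopolysaccharide-binding protein gene Lbp (1.21) and the growth factor receptor gene Fgfr3 (1.29).

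Igsf21 was nearest to Tfap2c, a transcription factor of early germ cells (distance 0.465, r = 0.998), which averaged 78.0 ± 51.9 CPM in USg, 5.79 ± 0.189 CPM in DSg and 0.830 ± 0.0584 CPM in Spc. Both had the same uneven USg libraries. Cryga was nearest to Fgfr3 (0.460) and to Gfra1, the GDNF co-receptor that defines stem spermatogonia (0.489), ahead of the feedback inhibitor gene Il17rd (0.637). Gfra1 averaged 186 ± 4.76 CPM in USg, 21.6 ± 6.57 CPM in DSg and 4.48 ± 0.754 CPM in Spc. Rgs5 was nearest to the splicing factor gene Esrp1 (0.607), the oocyte homeobox gene Lhx8 (0.643) and the protein kinase C gene Prkcq (0.813). Tcl1a had no neighbour closer than 1.61, the kallikrein gene Klk13, followed by the membrane glycoprotein gene Emb (1.84) and Tfap2c (1.95).

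Sgk1 was nearest to Adgrg1, an adhesion G protein-coupled receptor gene (distance 1.36, r = 0.981), which averaged 168 ± 57.1 CPM in USg, 15.9 ± 0.758 CPM in DSg and 119 ± 16.4 CPM in Spc (SD, n = 2 each). A locus listed as LOC100910973 followed (1.47). Egr3, an immediate early transcription factor gene, lay at a distance of 1.49, with 52.1 ± 32.1 CPM in USg, 3.77 ± 1.90 CPM in DSg and 24.9 ± 2.93 CPM in Spc. Adgrg1 and Egr3 shared with Sgk1 a low level in DSg between higher ones in USg and Spc. Between members, Cryga and Rgs5 were the closest pair (1.13), followed by Cryga and Igsf21 (1.16). Sgk1 lay at 4.65 from Upk1b and at 5.62 to 7.28 from the other 5, farther than any pair without it, of which Rgs5 and Upk1b were the farthest apart (3.40).

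The families and pathways around the 7 genes were described with 7 lists of 209 genes, of which 144 passed the filter on low counts and were tested. The tests were edgeR's quasi-likelihood test with adjustment over all 12210 genes. In DSg against USg, 1 of the 144 rose (0.694%) and 5 fell (3.47%), against 0.565% of all genes higher and 1.92% lower, and the list median log2 fold change was 0.01, as was that of all genes. In Spc against USg, 21 rose (14.6%) and 33 fell (22.9%), against 17.9% higher and 16.6% lower of all genes, with a median of -0.18 against -0.04. In Spc against DSg, 20 rose (13.9%) and 24 fell (16.7%), against 14.8% higher and 11.7% lower of all genes, with a median of -0.23 against -0.03.

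The 6 genes that changed in DSg were single members of their lists. Of the 5 described here, Slc9a3r1 and Gnai2 are named after their values were seen. Irs2, the insulin receptor substrate 2 that feeds phosphoinositide 3-kinase, fell to 14.1 and 10.2 CPM in DSg, against 84.9 and 90.1 CPM in USg (log2 fold change -2.85 ± 0.36, adjusted p = 0.00947). In Spc it stood at 75.5 and 56.2 CPM, higher than in DSg (2.44 ± 0.36, adjusted p = 0.00198), which gave it the same order of groups as Sgk1. Slc9a3r1, a scaffold of the sodium-proton exchanger NHE3, fell to 6.46 and 7.27 CPM in DSg, against 32.8 and 59.6 CPM in USg (-2.75 ± 0.43, adjusted p = 0.0195). The Slc9a3r1 call was lost in 3 of 15 alternatives, namely in the fit of 4 libraries and without DSg 1 or DSg 2. Its level in Spc, 17.8 ± 1.52 CPM (SD, n = 2), again lay between the others. Gnai2, an inhibitory G alpha subunit, fell to 161 ± 34.3 CPM in DSg, against 440.4 ± 21.0 CPM in USg (-1.46 ± 0.29, adjusted p = 0.0437). This call was lost in 6 of 15 alternatives, namely in the fit of 4 libraries and without USg 2, DSg 1, DSg 2, Spc 1 or Spc 2, with an adjusted p of up to 0.231.

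Cd9, a tetraspanin used to enrich stem spermatogonia, fell to 85.7 and 38.0 CPM in DSg, against 278 and 269 CPM in USg (-2.15 ± 0.41, adjusted p = 0.0374). The Cd9 call was lost in 3 of 15 alternatives, namely in the fit of 4 libraries and without DSg 1 or DSg 2. Kirrel2, an adhesion protein related to nephrin, was the gene that rose: 12.9 and 37.2 CPM in DSg, against 2.32 and 0.178 CPM in USg (4.63 ± 0.96, adjusted p = 0.0446). In Spc it stood at 1.55 ± 0.0372 CPM. The Kirrel2 call was lost in 5 of 15 alternatives, with total counts, with limma-voom, in the fit of 4 libraries and without DSg 1 or DSg 2, with an adjusted p of up to 0.243. With either DSg library left out, edgeR's test called 0 of the 144 genes, and 49 without DSg 1 and 26 without DSg 2 had an unadjusted p under 0.05, with the remaining DSg library assumed to vary like the other groups. Without USg 1 it called 27, and over all 6 libraries DESeq2 called 15 and limma-voom 7.

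**Figure D4:**
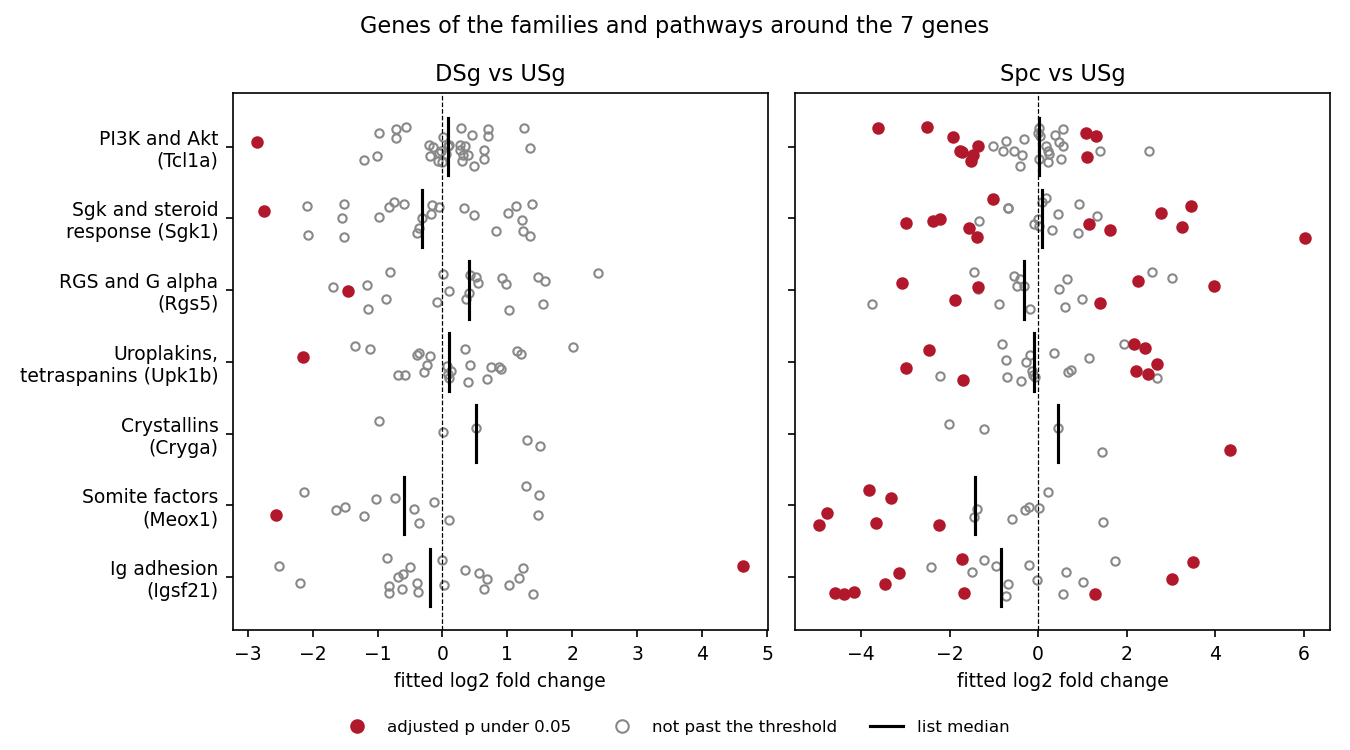
Fitted log2 fold change of the tested genes of the 7 families and pathways, DSg over USg on the left and Spc over USg on the right; filled points passed an adjusted p under 0.05, open points did not, and black lines are list medians. Kirrel2 (4.63) is the filled point on the right of the first panel, and the somite list has 6 filled points below 0 and none above it in the second.

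In the Akt list, which sets the pathway of Tcl1a beside it, 3 of 33 genes rose (9.09%) and 8 fell (24.2%) in Spc against USg. Of all genes, 17.9% were called higher and 16.6% lower. Pik3cd, the delta catalytic subunit of phosphoinositide 3-kinase, stood at 16.6 and 12.0 CPM in Spc, against 161 and 191 CPM in USg (-3.62 ± 0.38, adjusted p = 3.08e-04). The transcription factor gene Foxo1, which Akt holds out of the nucleus, stood at 63.0 ± 5.46 CPM in Spc and 358 ± 16.1 CPM in USg (-2.51 ± 0.29, adjusted p = 4.54e-04), and the phosphatase gene Inpp5d at 6.70 ± 2.23 CPM and 25.1 ± 5.52 CPM (-1.91 ± 0.48, adjusted p = 0.0155). Of the kinases that Tcl1a binds, Akt1 fell in Spc to 67.7 ± 11.3 CPM, against 175 ± 16.7 CPM in USg (-1.37 ± 0.30, adjusted p = 0.00764). Akt2 did not pass the threshold (0.38 ± 0.30, adjusted p = 0.342). Between DSg and USg neither Akt1 (0.35 ± 0.29, adjusted p = 0.551) nor Akt2 (-0.71 ± 0.30, adjusted p = 0.246) passed it.

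In the list around Sgk1, 6 of 25 genes rose (24%) and 6 fell (24%) in Spc against USg, against 17.9% higher and 16.6% lower of all genes. In Spc against DSg, 7 rose (28%) and 2 fell (8%), against 14.8% higher and 11.7% lower of all genes. Hsd11b1, which regenerates active glucocorticoid, stood at 91.2 and 98.8 CPM in Spc, against 3.47 and 0.178 CPM in USg (6.04 ± 0.99, adjusted p = 0.00217). The glucocorticoid-induced phosphatase gene Dusp1 stood at 10.0 and 22.8 CPM in USg, 6.06 and 5.39 CPM in DSg and 188 and 181 CPM in Spc (Spc over DSg 5.01 ± 0.48, adjusted p = 3.13e-04). Ndrg1, whose protein Sgk1 phosphorylates, stood at 160.2 ± 9.95 CPM in Spc and 17.3 ± 7.79 CPM in USg (3.24 ± 0.42, adjusted p = 7.45e-04). The liver enzyme gene Tat fell in Spc, with 1.05 ± 0.366 CPM against 8.46 ± 2.14 CPM in USg (-3.00 ± 0.75, adjusted p = 0.0152). Sgk2 had 3 to 31 counts per library, most in DSg 2, and was not tested. The summed Sertoli, fibroblast and muscle markers given beside Sgk1 were higher in Spc along with Hsd11b1, Dusp1 and Ndrg1, and their part was not tested.

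Among 21 RGS and G alpha genes around Rgs5, 3 rose (14.3%) and 3 fell (14.3%) in Spc against USg, against 17.9% higher and 16.6% lower of all genes. Rgs2 stood at 155 and 137 CPM in Spc, against 13.9 and 5.52 CPM in USg (3.97 ± 0.55, adjusted p = 0.00101). Rgs4, a neighbour of Rgs5 among the genes of the count table, stood at 15.6 and 12.9 CPM in Spc, against 0.772 and 4.63 CPM in USg (2.25 ± 0.71, adjusted p = 0.0373). The sums of the Sertoli, fibroblast and muscle markers given beside Sgk1 were higher in Spc along with Rgs2 and Rgs4, and their part was not tested. Gnaz, a G alpha subunit, stood at 3.64 ± 2.38 CPM in Spc and 31.2 ± 9.23 CPM in USg (-3.09 ± 0.54, adjusted p = 0.00290), and Rgs10 at 2.57 ± 0.551 CPM and 9.51 ± 0.901 CPM (-1.88 ± 0.52, adjusted p = 0.0230).

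Among 24 uroplakins and tetraspanins, 5 rose (20.8%) and 3 fell (12.5%) in Spc against USg, against 17.9% higher and 16.6% lower of all genes. Cd9 fell to 34.7 ± 5.31 CPM in Spc, against 273 ± 6.21 CPM in USg (-2.98 ± 0.43, adjusted p = 0.00116), and Tspan14 to 11.5 ± 2.86 CPM, against 63.1 ± 4.15 CPM (-2.46 ± 0.41, adjusted p = 0.00238). Tspan7 was higher in Spc (2.48 ± 0.50, adjusted p = 0.00582), as was Tspan11 (2.68 ± 0.76, adjusted p = 0.0252). Upk1a, the closest relative of Upk1b, had 4.04 and 8.62 CPM in DSg, against 4.63 and 27.4 CPM in USg (-1.35 ± 0.75, adjusted p = 0.362), and 15.4 and 12.0 CPM in Spc. Its USg libraries were far apart and overlapped with both DSg and Spc, unlike those of Upk1b. Upk2 and Upk3a, which encode other plaque proteins, had 0 to 18 counts per library.

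Of 5 tested crystallin genes, edgeR's test called 0 in DSg against USg, where 1 had an unadjusted p under 0.05 and DESeq2 and limma-voom also called 0. In Spc against USg, Cryab, the small heat shock protein alpha-B crystallin found in many tissues, rose to 66.2 and 59.4 CPM, against 3.47 and 2.85 CPM in USg (4.32 ± 0.53, adjusted p = 5.93e-04). Muscle markers, which summed to 597 and 654 CPM in Spc and to 59.8 and 87.6 CPM in USg, and fibroblast markers, at 2423 and 2268 CPM in Spc and 493 and 223 CPM in USg, moved with it, and their part was not tested. In the somite list around Meox1, 6 of 14 genes fell (42.9%) in Spc against USg, against 16.6% of all genes. There edgeR's test called 0 higher, against 17.9% of all genes. In that direction 1 had an unadjusted p under 0.05, DESeq2 called 0 and limma-voom 1. The homeobox gene Six4 stood at 0.985 and 0.871 CPM in Spc, against 43.2 and 16.6 CPM in USg (-4.94 ± 0.67, adjusted p = 8.91e-04). Lfng, a modulator of Notch, fell as well (-3.82 ± 0.54, adjusted p = 0.00109), as did the cell-cycle inhibitor gene Cdkn2a (-3.67 ± 0.71, adjusted p = 0.00455). Meox2 had 0 to 10 counts per library and was not tested.

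Among 22 immunoglobulin adhesion genes, 3 rose (13.6%) and 7 fell (31.8%) in Spc against USg, against 17.9% higher and 16.6% lower of all genes. Kirrel3, which acts in synapse formation, stood at 2.83 and 5.92 CPM in DSg and 22.8 and 28.9 CPM in USg without passing the threshold (-2.52 ± 0.62, adjusted p = 0.0737), and at 0.394 and 1.74 CPM in Spc, where it fell (-4.59 ± 0.70, adjusted p = 0.00158). Igsf9 stood at 3.35 and 4.35 CPM in Spc, against 32.0 and 106 CPM in USg (-4.17 ± 0.73, adjusted p = 0.00294). Islr, a gene of mesenchymal cells, rose in Spc (3.50 ± 0.76, adjusted p = 0.00809) along with the sum of the fibroblast markers, whose part in it was not tested. Leaving out 1 library ended the Spc against USg calls of Akt1, Inpp5d, Tat, Rgs4, Rgs10, Tspan11 and Cdkn2a, with the highest adjusted p per gene between 0.0673 (Cdkn2a without USg 2) and 0.234 (Rgs10).

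The protein-coding genes on either side of the members in GRCr8 were looked up by a rule set after the counts had been seen. Only genes with a current or older symbol in the count table were used. Others were skipped, so a neighbour here need not be the very next gene on the chromosome. Of 14 neighbours, 9 were tested. In DSg against USg, edgeR's test called 1 of the 9, where 1.92% of all genes were called lower and 0.565% higher. B4galt4, a galactosyltransferase gene beside Upk1b, fell to 26.7 CPM in both DSg libraries, against 84.1 and 95.6 CPM in USg (-1.75 ± 0.34, adjusted p = 0.0400). Igsf11, on the other side of Upk1b, did not pass the threshold (-0.82 ± 0.30, adjusted p = 0.196). In Spc against USg 4 of the 9 fell, namely Etv4 beside Meox1 (-3.54 ± 0.51, adjusted p = 0.00120), B4galt4 (-3.16 ± 0.37, adjusted p = 4.50e-04), Idh1 beside Cryga (-2.08 ± 0.46, adjusted p = 0.00894) and Glrx5 beside Tcl1a (-1.91 ± 0.36, adjusted p = 0.00398). Rgs4 beside Rgs5 rose. Of all genes, 16.6% were called lower and 17.9% higher in Spc than in USg. B4galt4 lost its DSg call without either DSg library, in the fit of 4 libraries and with total-count scaling (adjusted p up to 0.215).

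Defining markers of the bladder lining, the lens and B cells, tissues from which some of the 7 genes are known, stood at or near 0 in USg. Of 10 urothelium markers, 1 reached 5 CPM in USg (Upk1a, listed above), and the keratin genes Krt5 and Krt20 averaged 0.668 and 0.549 CPM there; the list summed to 20.8 and 40.2 CPM in USg, 19.4 and 51.2 CPM in DSg and 66.4 and 58.6 CPM in Spc. Of 9 lens markers, 3 reached 5 CPM in USg, Cryaa averaged 1.66 CPM, and the sums were 33.6 and 44.7 CPM in USg, 37.6 and 44.2 CPM in DSg and 26.2 and 26.3 CPM in Spc, with Foxe3 at 0 counts in DSg and Spc. Of 7 lymphocyte markers, 2 reached 5 CPM in USg, the B cell genes Cd79b and Ms4a1 averaged 1.34 and 0.0890 CPM, and the sums were 34.0 and 29.6 CPM in USg, 33.9 and 36.4 CPM in DSg and 7.69 and 9.80 CPM in Spc.

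Of 8 pericyte markers, 6 reached 5 CPM in USg, with sums of 712 and 944 CPM in USg, 253 and 297 CPM in DSg and 239 and 217 CPM in Spc. Mcam and Anpep, at 612 and 129 CPM in USg, made up most of this sum. Pdgfrb (41.0 CPM), Notch3 (29.2 CPM), Cspg4 (8.79 CPM) and Abcc9 (7.70 CPM) were also present in USg, while Kcnj8 and Higd1b averaged 0.386 and 0.193 CPM. Of 7 somite markers, 3 reached 5 CPM in USg, and the sums were 49.8 and 110.0 CPM in USg, 37.2 and 57.9 CPM in DSg and 19.5 and 17.2 CPM in Spc. Tcf15, a somite factor gene that stood at 61.4 ± 35.5 CPM in USg, made up most of it, whereas Pax3 averaged 1.07 CPM. The endothelium list summed to 221 and 169 CPM in USg, 75.2 and 112 CPM in DSg and 44.3 and 54.4 CPM in Spc, led in USg by Pecam1 (91.6 CPM), Kdr (43.0 CPM), Vwf (34.2 CPM) and Egfl7 (17.5 CPM), with Cdh5 at 0.534 and Cldn5 at 0.267 CPM. The part of pericyte, endothelium and somite markers in the members' levels was not tested. By its sum, each marker list of a labelled cell type was highest in the group of that label, with exceptions among single genes: 9 markers of undifferentiated spermatogonia summed to 1736 and 2044 CPM in USg, 337 and 329 CPM in DSg and 209 and 191 CPM in Spc, 6 markers of differentiating spermatogonia to 337 and 506 CPM in USg, 1070.3 and 1199 CPM in DSg and 287 and 313 CPM in Spc, and 9 spermatocyte markers to 1038 and 533 CPM in USg, 1174 and 665 CPM in DSg and 7566 and 8347 CPM in Spc. Id4, a marker of stem spermatogonia, went against its list, with 139.7 and 118 CPM in Spc and 49.0 and 47.4 CPM in USg (1.42 ± 0.33, adjusted p = 0.0111), and made up most of that list's sum in Spc. Of the differentiating markers, Kit was higher in DSg, at 597 and 562 CPM, than in USg, at 86.0 and 63.2 CPM (2.96 ± 0.31, adjusted p = 0.00556). Sohlh1 was not, at 54.1 and 79.4 CPM in DSg and 43.2 and 147 CPM in USg (-0.52 ± 0.52, adjusted p = 0.626), and Dmrtb1 was highest in Spc, at 13.0 and 14.4 CPM.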

How the data were processed

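The authors deposited a table of raw read counts per gene symbol for 6 RNA libraries (USg, DSg and Spc, 2 each), with no normalization, as the whole numbers and unequal totals show; 0 columns lacked a sample. Per the submitters' processing notes, the tools include STAR 2.5.3a, featureCounts and Subread 1.4.6, without roles; how reads were aligned and counted, and by which annotation and strand rule, is not given in the sources used here. The 2 samples of Foxa2 chromatin immunoprecipitation were not analysed here.

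Counts were fitted in 1 model of 6 libraries with edgeR 4.0.16 in R 4.3.3 (TMM factors, filter at 10 counts and a total of 15, quasi-likelihood F-test on 3 residual degrees of freedom, Benjamini-Hochberg adjustment over 12210 genes, threshold 0.05). SE is the log2 fold change divided by the square root of F. The fit was tested on simulated counts. All 7 members passed the filter, in part through USg, where they are high. Profiles used log2 CPM with a prior count of 2; 14450 symbols were current RefSeq symbols, those of the 7 members included. Alternatives were RLE factors, total counts, no filter, DESeq2 1.42.0, limma-voom (limma 3.58.1), the 4 libraries compared, a replicate block, no ribosomal RNA genes, a prior of 0.5, each library left out and, chosen after seeing the data, USg 1 and DSg 1 left out together.

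The members and the lists were chosen with earlier results of these data known. Genes named were the members, up to 4 called genes per list by fold change in DSg or Spc against USg with at least 5 CPM in the higher group, direct relatives at or above 5 CPM, and the 3 genes most like each member; some of the genes this rule gives are not reported here.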

Additional observations from a re-analysis of the deposited data

How the results depend on the processing

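The 28 member values (shares left and log2 differences) changed sign in 0 of 294 comparisons with an alternative, and moved by more than 1 SD between replicates in 27. Counts of called genes were less steady, chiefly in DSg against USg, where 303 genes in all and 6 list genes were called. That became 199 with total counts, 1044 and 19 with no filter, 781 and 15 with DESeq2, and 90 and 1 with the 4 libraries compared. With the replicate block it was 604 and 13. The deviations of same-numbered libraries correlated at 0.25 (DSg and USg), -0.27 (Spc and USg) and 0.01 (Spc and DSg) with 2 pairs each. With so few pairs this cannot tell whether the numbers pair the libraries. USg 1 and DSg 1 had the highest shares of ribosomal RNA, at 7.80% and 12.4% of counts. Leaving out 1 library gave 0 to 1501 genes and 0 to 27 list genes in DSg against USg, 2258 to 4411 and 30 to 62 in Spc against USg, and 1642 to 4289 and 21 to 59 in Spc against DSg. The lowest counts, 0 with edgeR, came without DSg 1 (3439 genes at an unadjusted p under 0.05) and without DSg 2 (1823), where 1 DSg library remained and no other tool was run. Without USg 1 and DSg 1 together, where the spread comes from the Spc pair alone, the calls were 6327 and 80 in DSg against USg, 8246 and 97 in Spc against USg and 8292 and 110 in Spc against DSg. The cause of these shifts was not tested. Depth limits Tcl1a, Cryga and Rgs5 in Spc, with 3, 2 and 1 counts.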
